A study of Mus musculus with 80 samples.

Results

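Expression of 10 early response genes, Fos, Fosb, Fosl2, Jun, Junb, Jund, Atf3, Egr1, Ier2 and Zfp36, was examined in muscle stem cells (MuSCs) of the extraocular muscles (EOM) and of the Tibialis anterior (TA), before and after grafting. The members were the genes with these symbols among the 25899 genes of the deposited expression table, and all 10 were present. MuSCs were sorted by GFP from Tg:Pax7-nGFP mice, in which a Pax7 transgene drives nuclear GFP, and 500 cells per muscle were sequenced as EOM pre-graft and TA pre-graft libraries. For the EOM post-graft and TA post-graft libraries, cells of 1 donor were injected into the 2 TA muscles of the same Rag2-/-;γC-/- recipient, which lacks lymphocytes and had been injured with cardiotoxin the day before, and were sorted again by GFP at the time that the sample titles give as day 21 (the study's text gives this time or a longer one). There were 4 donors aged 7.6 weeks in Experiment 1 and 6 donors aged 7 weeks in Experiment 2. All groups share the Pax7-nGFP allele, a digestion with collagenase, trypsin and DNase at 37°C and a sort of live GFP-positive cells. Digests were either frozen or sorted directly, and the labels do not say which for a given library. The study's methods give direct sorting for transplantation, and its text describes pre-graft cells as a fraction set aside before grafting.

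AP-1 is a family of transcription factors that bind DNA as dimers of FOS, JUN and ATF proteins joined through a leucine zipper. Their genes are silent or low in many resting cells and are transcribed within minutes when kinases of the MAPK pathways reach SRF, the ELK factors and CREB at their promoters, together with other early response genes such as Egr1. In MuSCs these genes are known for being switched on by injury and also by the enzymatic dissociation of muscle itself, so that RNA of sorted cells can carry such a response. Neither part was measured here.

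Early response genes are known to be induced through SRF, CREB and EGR sites near their starts, and the bases before the annotated start of 5 members that held letters of such a site are printed for this reason. They were read from the GRCm38 genome of RefSeq. Capitals mark the CArG box (the SRF site), TGACG or its reverse complement CGTCA (the core of the CREB site), the EGR site GCGGGGGCG and the TATA box TATAAA. Positions count back from the base before the gene start as the expression table gives it. The Fos window covers chr12:85473565-85473864 on the plus strand, and the Fosb window covers chr7:19310046-19310345 on the minus strand. The others are shorter, Zfp36 at chr7:28379256-28379385 on the minus strand, Junb at chr8:84978749-84978878 on the minus strand and Fosl2 at chr5:32136342-32136471 on the plus strand.
Fos: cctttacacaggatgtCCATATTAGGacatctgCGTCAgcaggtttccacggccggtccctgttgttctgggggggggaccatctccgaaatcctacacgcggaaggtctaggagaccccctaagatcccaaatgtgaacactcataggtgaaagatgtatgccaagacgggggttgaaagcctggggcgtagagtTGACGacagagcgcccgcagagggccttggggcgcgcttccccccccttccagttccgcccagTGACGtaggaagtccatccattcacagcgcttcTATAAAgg
Fosb: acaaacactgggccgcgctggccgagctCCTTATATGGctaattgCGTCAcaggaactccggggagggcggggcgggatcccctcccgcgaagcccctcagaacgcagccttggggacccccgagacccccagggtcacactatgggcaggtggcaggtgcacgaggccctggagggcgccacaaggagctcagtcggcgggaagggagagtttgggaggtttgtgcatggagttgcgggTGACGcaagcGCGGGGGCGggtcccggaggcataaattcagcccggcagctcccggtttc
Zfp36: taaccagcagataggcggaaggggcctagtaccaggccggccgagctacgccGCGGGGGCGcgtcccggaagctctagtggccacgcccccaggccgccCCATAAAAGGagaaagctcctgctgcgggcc
Junb: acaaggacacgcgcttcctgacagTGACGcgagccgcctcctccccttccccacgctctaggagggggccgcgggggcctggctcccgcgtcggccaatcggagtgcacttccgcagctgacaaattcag
Fosl2: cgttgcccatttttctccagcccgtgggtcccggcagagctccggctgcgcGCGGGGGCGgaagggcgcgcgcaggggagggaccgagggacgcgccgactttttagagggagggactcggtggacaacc

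Motifs were searched on both strands in the 500 bases before the start of 8 members (all but Egr1 and Ier2) and of 25875 genes. A CArG box was found in 3 of the 8, in Fos from position -309, in Fosb from -272 and in Zfp36 from -31, against 2.61% of all windows. The EGR site was found in Fosb from -50, in Fosl2 from -79 and in Zfp36 from -78, against 3.58% of all windows. TGACG was found in Fos, Fosb, Jun and Junb, but it is short and 26.7% of all windows held it. TATAAA was found in Fos from -33, against 24.6% of all windows. The full CREB site TGACGTCA, which contains TGACG, and the AP-1 site TGAGTCA were in none of the 8 windows, against 2.08% and 7.46% of all windows. The windows of Jund and Atf3 held none of these motifs. These matches are letters in a window and were not related to the changes below.

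Of the 40 RNA libraries, 30 passed the study's quality criteria and were used, 8 EOM pre-graft, 8 TA pre-graft, 7 EOM post-graft and 7 TA post-graft. The total count was 3326270 to 14402975 reads per library, and a single member had between 38 reads (Fosl2) and 12840 reads (Fos) in a library. Reads were amplified, in the grafts from few cells, so their number does not give the error of sampling molecules, which was not measured. Post-graft libraries came from far fewer cells than pre-graft ones, with a median of 35 cells in EOM and 26 in TA, and mitochondrial genes took 2.91 to 8.16% of the reads in EOM pre-graft, 3.22 to 22.9% in TA pre-graft, 3.85 to 59.6% in EOM post-graft and 5.45 to 46.8% in TA post-graft libraries. Since the deposited values are scaled to the total of all reads (RPM), a large mitochondrial share lowers the value of every other gene in that library. Of the 8 MuSC markers (Pax7, Myf5, Cdh15 and others) all were detected in each group, and their summed level was 11988 to 22397 RPM before grafting and 197 to 14112 RPM after it. The summed level of 6 endothelial markers had a median of 21.7 RPM in EOM pre-graft, 192 RPM in TA pre-graft, 2076 RPM in EOM post-graft and 3059 RPM in TA post-graft libraries. In such bulk libraries fewer cells of a type and less RNA per cell cannot be told apart.

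All 10 members had reads in every library. Together they took 0.813 to 1.46% of the reads on nuclear genes in EOM pre-graft and 1.47 to 2.24% in TA pre-graft libraries. After grafting this share was 0.546 to 1.15% in EOM cells and 0.520 to 1.48% in TA cells. The share was thus higher in each TA pre-graft library than in any EOM pre-graft library, while the post-graft ranges of the 2 muscles overlapped over most of their length.

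Per kilobase of exon, Fos stood first among the 10 genes before grafting, with a median of 1401 RPM per kb in EOM and 2459 RPM per kb in TA, followed in both muscles by Junb (769 and 1244), Egr1 (654 and 869) and Jun (489 and 803 RPM per kb). Fosl2 was last, at 16.03 and 23.51 RPM per kb. After grafting Junb stood first (460 RPM per kb in EOM and 750 in TA) and Fos followed (353 and 685 RPM per kb), with Egr1 at 132 and 164 RPM per kb. In TA before grafting Fos did not overlap with Junb, the next gene (2086 to 3671 against 834 to 1576 RPM per kb), while in EOM the ranges of both overlapped. The ranges of all other neighbours overlapped, but for Fosl2, which lay below the gene before it in every group except TA post-graft.

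**Figure D1:**
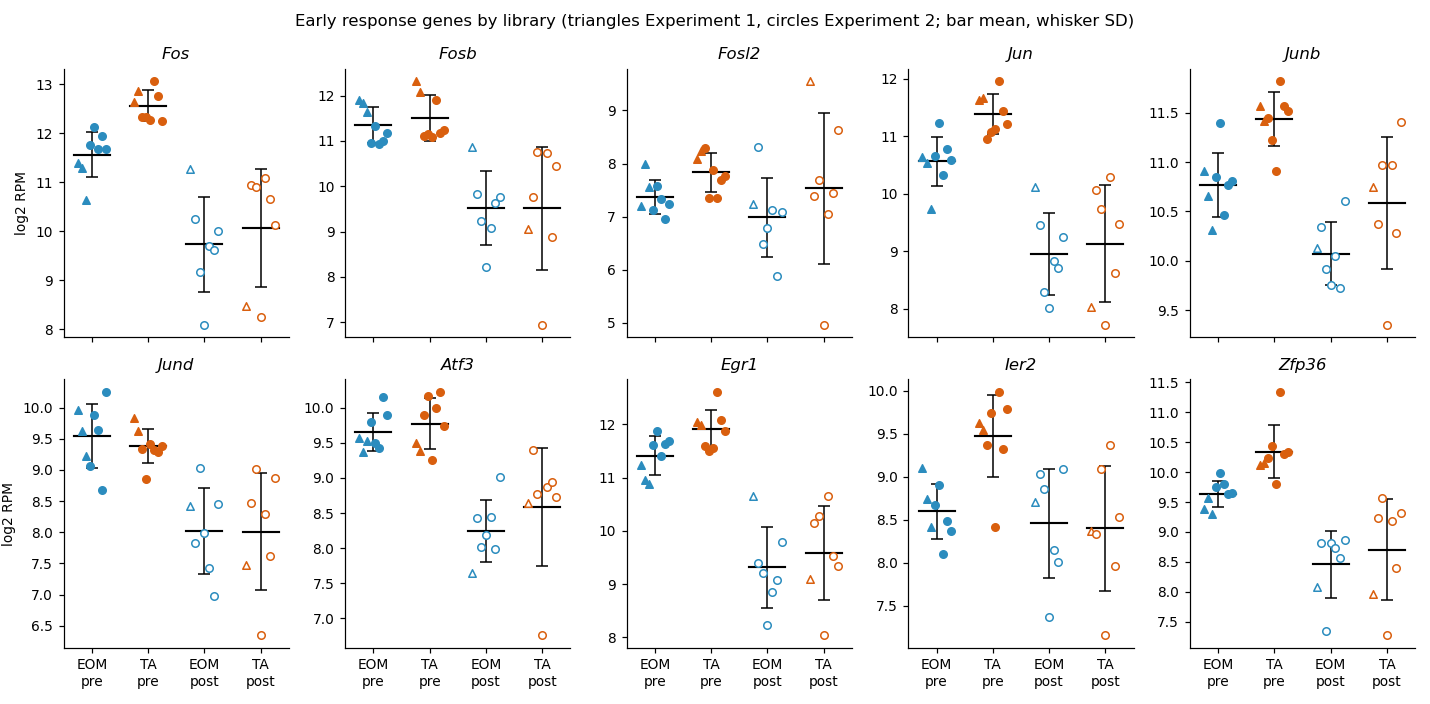
Level of each of the 10 genes (y axis, log2 RPM) in each library of the 4 groups (x axis). Each point is a library, triangles are Experiment 1 and circles Experiment 2, bars are means and whiskers SD. Fos is higher in each TA pre-graft library than in any EOM pre-graft library, and most members are lower and more spread after grafting.

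Before grafting, TA MuSCs held more mRNA of several early response genes than EOM MuSCs. Fos was 2-fold higher, and Ier2, Jun, Zfp36 and Junb were 1.83-, 1.76-, 1.63- and 1.58-fold higher, whereas Fosb, Atf3 and Jund differed by at most 1.12-fold. The comparison asks how MuSCs of a head and of a limb muscle differ at the time of isolation. Differences were tested with limma on the deposited log2 RPM values over 13217 genes with Benjamini-Hochberg adjustment, and a gene was called where its adjusted p was under 0.05 and its log2 fold change beyond 1.

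Fos encodes an AP-1 subunit that binds DNA only with a JUN partner (chromosome 12, 85473890 to 85477273, plus strand). Its level was 10.64, 11.69 and 12.13 log2 RPM (lowest, median and highest) in the 8 EOM pre-graft libraries and 12.26, 12.49 and 13.08 in the 8 TA pre-graft libraries. The groups did not overlap, and the log2 fold change was 1.00 ± 0.20 (SE; limma adjusted p = 0.00237). Fos was the only member called, at the edge of the fold threshold, and the only one of 10 whose groups did not overlap, where 1.26% of all genes were called higher in TA and 2.28% did not overlap. The difference was also present within the experiments, with EOM at 10.64 to 11.40 and TA at 12.65 to 12.87 log2 RPM in Experiment 1 (3 and 2 libraries), and EOM at 11.68 to 12.13 and TA at 12.26 to 13.08 in Experiment 2 (5 and 6 libraries). Within Experiment 2 alone its log2 fold change was 0.67 (adjusted p = 0.0820), so the size was larger in the few libraries of Experiment 1.

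Ier2, an early response gene for a nuclear protein (chromosome 8, 84661331 to 84662852, minus strand), stood at 8.10, 8.58 and 9.10 log2 RPM in EOM and at 8.42, 9.59 and 9.99 in TA. The groups overlapped only through the lowest TA library, of Experiment 2 mouse 3, and the log2 fold change was 0.87 ± 0.19 (adjusted p = 0.00463). Without that library it was 1.03 and passed the fold threshold. Zfp36 encodes tristetraprolin, which binds AU-rich elements and promotes the decay of short-lived mRNAs (chromosome 7, 28376784 to 28379255, minus strand), and its level was 9.31, 9.64 and 9.99 log2 RPM in EOM and 9.81, 10.27 and 11.35 in TA. Its log2 fold change was 0.71 ± 0.17 (adjusted p = 0.0113).

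The JUN genes, whose products pair with FOS proteins or with each other, behaved unequally. Jun (chromosome 4, 95049034 to 95052222, minus strand) stood at 9.73, 10.61 and 11.23 log2 RPM in EOM and at 10.95, 11.32 and 11.96 in TA, with a log2 fold change of 0.82 ± 0.19 (adjusted p = 0.00738). Junb, a JUN protein that activates transcription more weakly than Jun (chromosome 8, 84976909 to 84978748, minus strand), stood at 10.32, 10.79 and 11.40 in EOM and at 10.91, 11.48 and 11.82 in TA, with a log2 fold change of 0.66 ± 0.16 (adjusted p = 0.0115). For both, each of the 8 TA libraries lay above the EOM median but the groups overlapped. Jund, which many resting cells express (chromosome 8, 70697739 to 70700616, plus strand), ranged from 8.68 to 10.26 log2 RPM in EOM and from 8.86 to 9.82 in TA, with a log2 fold change of -0.16 (95% interval -0.55 to 0.24).

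The remaining members did not pass the test. Egr1, a zinc finger transcription factor on chromosome 18, had a median of 11.51 log2 RPM in EOM and 11.93 in TA (log2 fold change 0.49 ± 0.18, adjusted p = 0.107), and Fosl2, which encodes Fra-2, 7.28 and 7.83 (0.47 ± 0.17, adjusted p = 0.0995). Fosb stood at 10.94 to 11.91 log2 RPM in EOM and 11.09 to 12.33 in TA, with a log2 fold change of 0.16 (95% interval -0.28 to 0.61). Atf3, a stress-induced factor of the ATF family that mostly represses its targets, stood at 9.36 to 10.15 and 9.26 to 10.23, with a log2 fold change of 0.12 (95% interval -0.21 to 0.45). The FOS family thus held both the member with the largest difference and, in Fosb, one of the smallest.

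Of the 10 members, 5 had an adjusted p under 0.05, all higher in TA, against 7.87% of all genes in either direction. The median log2 fold change of all genes tested was -0.30, beside a median mitochondrial share of 3.56% of reads in EOM and 10.7% in TA libraries, and all 10 members lay above it, with a median of 0.58. Relative to the median of each library, the log2 fold changes were 1.24 for Fos, 1.11 for Ier2 and 1.06 for Jun, which were then called (3 of 10 against 1.77% of all genes), and 0.95, 0.90, 0.73 and 0.71 for Zfp36, Junb, Egr1 and Fosl2, whose adjusted p was under 0.05. Counting tools on the recovered reads gave similar values, with Fos at 1.20, Ier2 at 1.14 and Jun at 1.02 in edgeR, which called these 3 (1.87% of all genes were called higher). With mitochondrial genes left out of the total, the Fos difference was 1.22. Endothelial markers ranged from 0 to 372 RPM in EOM and from 1.51 to 1715 RPM in TA pre-graft libraries with reads for all 6 of them in each group, and their part in these differences was not tested.

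EOM and TA cells came from the same animals, and 7 donors had both pre-graft libraries. Fos, Ier2 and Zfp36 were higher in TA than in EOM in 7 of 7 donors, by a mean of 0.91, 1.00 and 0.74 on the log2 scale (exact sign-flip permutation test, two-sided, p = 0.0156 for each, the smallest that 7 donors allow). Of all genes, 2.69% were higher in TA in 7 of 7 donors on this scale. For Jun and Junb the difference was positive in 6 of 7 donors (means 0.74 and 0.67, exact p = 0.0312 for both) and for Fosl2 in 6 of 7 (mean 0.49, exact p = 0.0469). With donor mouse as a block in limma, Fos was at 0.91 ± 0.18 (adjusted p = 0.00651) and fell short of the fold threshold. After centring each library on its median, all members but Jund were higher in TA in 7 of 7 donors (4.98% of all genes were), while Jund was higher in 3 of 7. With the libraries that miss the quality criteria added, the adjusted p of Jun, Junb, Ier2 and Zfp36 was 0.0673, 0.326, 0.304 and 0.275, and in 1 fit over the 4 groups those of the 5 members lay between 0.192 and 0.399. In Experiment 2 alone the limma adjusted p of Jun, Junb and Zfp36 was 0.134, 0.134 and 0.106, and 1 of 10 members had one under 0.05. The call of Fos rested on its value near the threshold: it was lost when any 1 of EOM Experiment 1 mouse 3, 4 or 5 (0.98, 0.96, 0.87), TA Experiment 1 mouse 3 or 4 (0.99, 0.96) or TA Experiment 2 mouse 4 or 5 (0.93, 0.97) was left out, with an adjusted p of at most 0.00671 throughout.

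**Figure D2:**
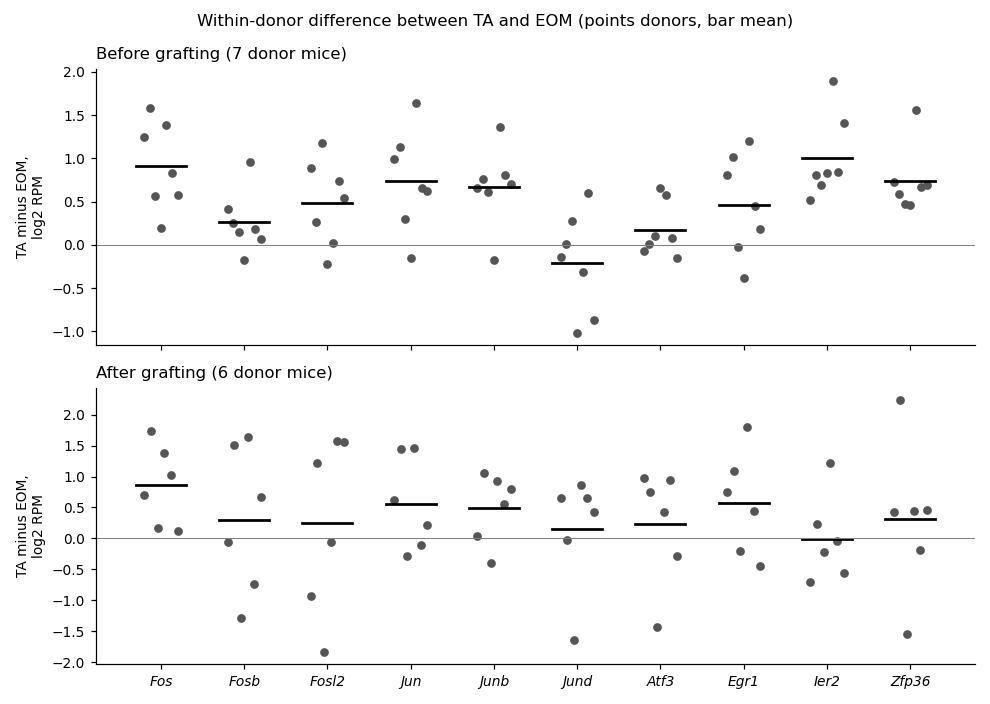
Difference between TA and EOM within each donor (y axis, TA minus EOM, log2 RPM) for each gene (x axis), before grafting (7 donors, upper panel) and after it (6 donors, lower panel). Points are donors and bars are means. Fos is above 0 in each donor in both panels, and the other genes spread to both sides of 0 after grafting.

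The balance among members also differed. Fos exceeded Egr1 by 0.66 ± 0.17 on the log2 scale in TA (SD, n = 8, from 0.39 to 0.89) and by 0.15 ± 0.19 in EOM (SD, n = 8, from -0.25 to 0.33), without overlap. Fos over Jun was 1.19 ± 0.13 in TA and 1.01 ± 0.21 in EOM, and these ranges overlapped. Such ratios within a library do not depend on its mitochondrial share.

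After grafting, TA MuSCs held less mRNA of 8 of the 10 genes in RPM than before it. Fos fell by 2.50 on the log2 scale, Egr1 by 2.32, Jun by 2.25 and Fosb by 2.00, while Junb and Fosl2 did not pass the thresholds. Most genes were lower after grafting on this scale, with a median log2 fold change of -1.09 over 13076 genes and 30.9% of them called lower, so each value is given below also relative to the median of each library. The comparison is the study's control for grafting itself, since these cells were returned to the kind of muscle they came from. The same TA pre-graft libraries serve here and in the comparison of TA with EOM.

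Fos stood at 12.26, 12.49 and 13.08 log2 RPM before grafting and at 8.26, 10.65 and 11.08 in the 7 TA post-graft libraries. The groups did not overlap, and the change was -2.50 ± 0.43 (adjusted p = 0.000572), or -1.61 relative to the library median (adjusted p = 0.00155). Egr1 went from 11.50, 11.93 and 12.62 to 8.04, 9.52 and 10.65 without overlap, a change of -2.32 ± 0.38 (adjusted p = 0.000365) and of -1.43 relative to the library median. Both genes remained called on both scales.

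Jun went from 10.95, 11.32 and 11.96 to 7.73, 9.47 and 10.29 log2 RPM, a change of -2.25 ± 0.39 (adjusted p = 0.000572). Fosb, another FOS protein that needs a JUN partner (chromosome 7, 19302721 to 19310045, minus strand), went from 11.09, 11.22 and 12.33 to 6.94, 9.77 and 10.75, and fell by 2.00 ± 0.46 (adjusted p = 0.00379). Neither gene's groups overlapped, and relative to the library median Jun changed by -1.35 and Fosb by -1.11. Zfp36 went from 9.81, 10.27 and 11.35 to 7.27, 9.18 and 9.57 without overlap, by -1.64 ± 0.36 (adjusted p = 0.00294), and by -0.75 relative to the library median, which did not reach the fold threshold.

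Jund, Atf3 and Ier2 were called lower in RPM, with log2 fold changes of -1.37, -1.18 and -1.07 (adjusted p = 0.00775, 0.0151 and 0.0218). On the scale of the library median these were -0.48, -0.29 and -0.18, with adjusted p of 0.168, 0.368 and 0.628. Their groups overlapped before and after grafting. Junb stood at 10.91, 11.48 and 11.82 log2 RPM before and at 9.35, 10.75 and 11.40 after, a change of -0.85 ± 0.35 (adjusted p = 0.0572), and Fosl2, an AP-1 subunit of slower and longer-lasting induction (chromosome 5, 32136472 to 32157831, plus strand), at 7.34, 7.83 and 8.29 before and 4.96, 7.45 and 9.56 after, a change of -0.30 (95% interval -1.24 to 0.64).

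In all, 8 of 10 members were called lower and none higher, against 30.9% and 3.79% of all genes, and 5 of 10 did not overlap, against 5.19%. The median of the members was -1.51, beside -1.09 for all genes. Once centred on the library median, 4 of 10 were called lower (Fos, Egr1, Jun and Fosb), against 5.68% of all genes, and edgeR on the recovered reads called the same 4 at -1.47, -1.41, -1.24 and -1.03, against 3.07%. Within the 7 donors with both libraries, 8 members were lower after grafting in 7 of 7 donors in RPM (exact p = 0.0156 for each), as were 17.2% of all genes, Jund was lower in 6 of 7 (exact p = 0.0312) and Fosl2 in 4 of 7 (exact p = 0.734). Centred, Fos, Jun, Egr1 and Zfp36 were lower in 7 of 7 donors, against 4.72% of all genes, Fosb and Atf3 in 6 of 7 (exact p = 0.0312 and 0.0469), Ier2 in 5 of 7 (exact p = 0.422) and Junb in 4 of 7 (exact p = 0.828). The calls of Atf3 and Ier2 were lost without TA post-graft Experiment 2 mouse 3 (-0.88 and -0.87), and that of Ier2 also without TA pre-graft Experiment 2 mouse 4 or TA post-graft Experiment 2 mouse 5 (-0.9993 and -0.9998, just short of the threshold).

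That library, TA post-graft of Experiment 2 mouse 3, held the lowest RPM of its group for all 10 members, with 46.8% of its reads in mitochondrial genes and 16 cells. Of its recovered reads on genes, 81.1% were mitochondrial. The members together took 0.984% of its reads on nuclear genes, beside a median of 0.990% in its group. The EOM graft of the same animal was the lowest of its group in RPM for Fos, Fosb, Jun, Egr1 and Ier2 and had 59.6% mitochondrial reads. Its members took 0.684% of the reads on nuclear genes, beside a group median of 0.790%. Without the TA graft of this animal, Fos was at -2.20 and Egr1 at -2.06, and 6 of 10 members were called lower. The summed MuSC markers stood at 11988 to 22397 RPM before and 197 to 9398 RPM after grafting in TA, the 6 endothelial markers at 1.51 to 1715 RPM and 918 to 5244 RPM, and the 5 mural markers at 640 to 1844 RPM and 678 to 6056 RPM. The 6 fibro-adipogenic markers had a median of 2263 RPM before and 2339 RPM after grafting, and the 5 Schwann cell markers 479 and 510 RPM. The part of other cells and of the smaller number of sorted cells in these changes was not tested.

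EOM MuSCs grafted into TA showed 7 of the 10 genes lower in RPM, led by Egr1 (-2.10), Fos (-1.84) and Fosb (-1.83), but the same was true of most genes. Over 13094 genes the median log2 fold change was -1.48 and 55.8% were called lower, while 3.51% were called higher. The members had a median of -1.47, near that of all genes, with 5 above and 5 below it. The EOM pre-graft libraries are those compared with TA above.

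Egr1 went from 10.89, 11.51 and 11.88 log2 RPM to 8.24, 9.20 and 10.66 without overlap, a change of -2.10 ± 0.30 (adjusted p = 8.03e-05). Centred on the library median it was at -0.85 (adjusted p = 0.00756), short of the fold threshold, and it was the only member with an adjusted p under 0.05 in that direction. Fos went from 10.64, 11.69 and 12.13 to 8.09, 9.70 and 11.28, a change of -1.84 ± 0.35 (adjusted p = 0.000716), with overlap through the graft of Experiment 1 mouse 4 at 11.28. Its centred value was -0.59 (adjusted p = 0.127).

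Ier2 was the member with the smallest change. Its level was 8.10, 8.58 and 9.10 log2 RPM before and 7.37, 8.71 and 9.09 after grafting, a change of -0.14 (95% interval -0.72 to 0.44). Relative to the library median it was 1.11 higher (adjusted p = 0.00264), and it was 1.03 higher in edgeR and 1.12 in DESeq2 on the recovered reads (adjusted p = 0.00645 and 9.81e-05), where edgeR called 6.93% of all genes higher. It was higher after grafting in 6 of 6 donors on that scale, by a mean of 1.34 (exact p = 0.0312, the smallest that 6 donors allow), and in 3 of 6 in RPM. It was the only member called higher relative to the library median, where 6.65% of all genes were.

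Fosb, Jun, Jund, Atf3 and Zfp36 were called lower in RPM, by -1.83, -1.61, -1.53, -1.41 and -1.18 (adjusted p from 0.000315 to 0.00136). Their centred values were -0.58, -0.36, -0.28, -0.16 and 0.07, and none of these had an adjusted p under 0.05. Junb went from 10.32, 10.79 and 11.40 to 9.72, 10.05 and 10.61 (-0.70 ± 0.22, adjusted p = 0.0131) and Fosl2 from 6.95, 7.28 and 7.98 to 5.88, 7.08 and 8.31 (-0.38 ± 0.32, adjusted p = 0.285). After centring, Fosl2 was 0.87 higher (adjusted p = 0.0448) and Junb 0.55 higher (adjusted p = 0.112).

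Fosb, Atf3, Egr1 and Zfp36 did not overlap before and after, 4 of 10 against 11.3% of all genes. Within 6 donors, 8 members were lower after grafting in 6 of 6 in RPM (exact p = 0.0312 for each), as were 29.4% of all genes. Centred, Egr1 was the only member lower in 6 of 6, where 4.94% of all genes were, and Fos was lower in 4, Atf3 and Zfp36 in 3 and Junb in 1 of 6. The call of Zfp36 was lost without the EOM graft of Experiment 2 mouse 2 (-0.99). The summed MuSC markers stood at 13277 to 17547 RPM before and 1216 to 14112 RPM after grafting, and the endothelial markers at 0 to 372 RPM and 79.6 to 4331 RPM. Reads were present for all markers of mural cells and myofibres as well, at 843 to 1143 RPM (5 mural markers) and 8.42 to 48.3 RPM (6 myofibre markers) before and at 527 to 4831 RPM and 11.3 to 1290 RPM after grafting. The 2 erythroid markers analysed had a median of 0.941 RPM before and 2019 RPM after it, with overlapping ranges (0 to 2043 and 0 to 2623 RPM). Other marker sets had lower medians after grafting, also with overlapping ranges. The 6 fibro-adipogenic markers had a median of 3060 RPM before and 1811 RPM after it, and the 5 Schwann cell markers 1063 and 365 RPM. The part of these other cells was not tested.

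**Figure D3:**
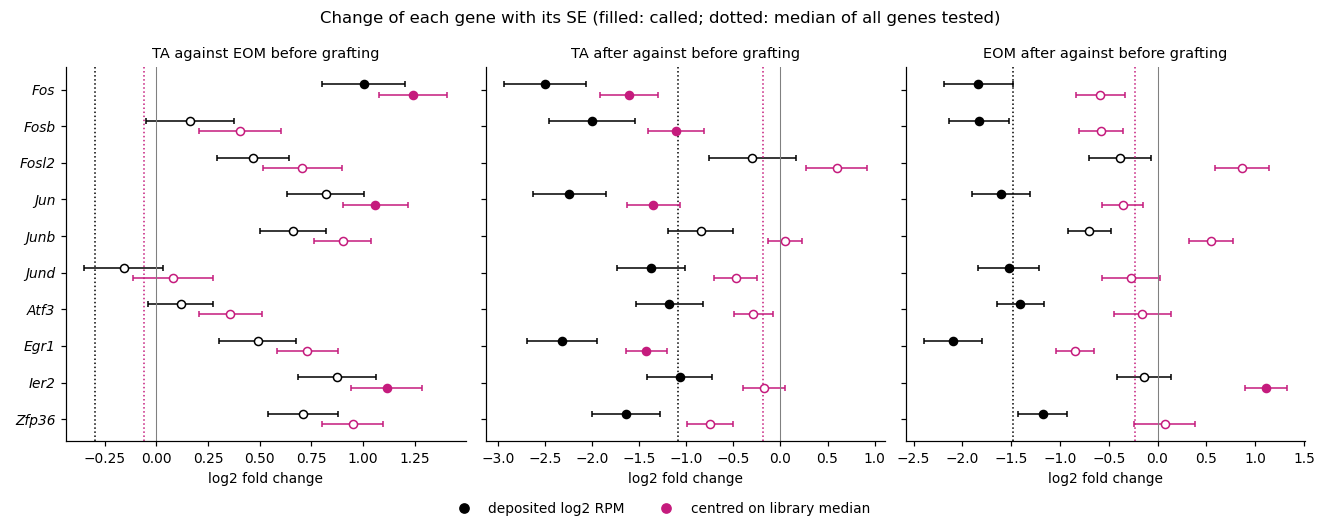
Log2 fold change of each gene (x axis, points with SE as whiskers) in each comparison (panels), from limma. Black points are from log2 RPM as deposited and pink points from values centred on each library's median. Filled points are called, and the dotted line of each colour is the median of all genes tested on that scale. Before grafting the 10 genes lie to the right of the dotted line of their colour. In the TA graft comparison Fos, Egr1, Jun and Fosb lie well to its left, and in the EOM graft comparison the genes lie on both sides of it.

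The profile among the 10 genes was not the same before and after grafting. Taken as a deviation from the mean of the 10 in the library, the post-graft minus pre-graft value of Egr1 was -0.77 ± 0.15 (SE) in TA and -0.83 ± 0.19 in EOM, and that of Fos -0.96 ± 0.27 and -0.57 ± 0.26. It was 0.70 ± 0.17 in TA and 0.57 ± 0.11 in EOM for Junb, 1.25 ± 0.47 and 0.89 ± 0.25 for Fosl2, and 0.48 ± 0.18 and 1.13 ± 0.16 for Ier2. Pre- and post-graft libraries did not overlap for Egr1 in TA and for Ier2 in EOM. Fos over Junb was 1.14 ± 0.24 (SD, n = 8) in TA and 0.80 ± 0.31 (SD, n = 8) in EOM before grafting, and -0.52 ± 1.05 and -0.34 ± 0.85 (SD, n = 7 each) after it, with overlap in EOM through 1 graft at 1.15. These within-library values are free of the mitochondrial share, and no test was run on them. The deviations within a library cancel out by construction, so strong falls of some members raise the others. A higher place in the profile is therefore not a rise in level.

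**Figure D4:**
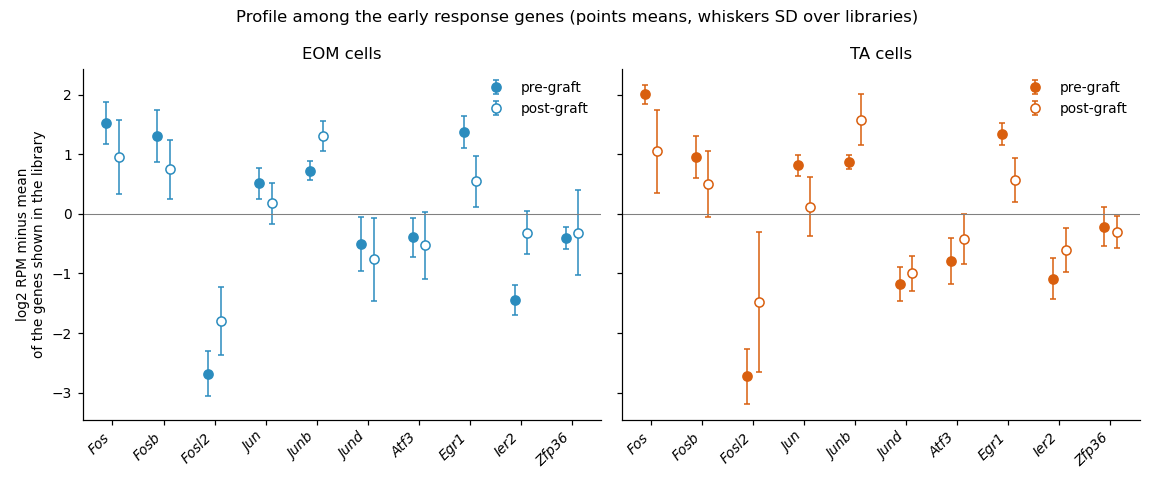
Deviation of each gene from the mean of the 10 genes in its library (y axis, log2 RPM) for EOM (left) and TA (right) cells before and after grafting. Points are means and whiskers SD over libraries. In both muscles Fos and Egr1 stand lower and Junb, Fosl2 and Ier2 higher in the profile after grafting. By construction a fall of some of the genes raises the others in this profile.

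Between the muscles of origin, no member differed after grafting by this test. Of 12377 genes limma called 0, and 452 had an unadjusted p under 0.05, none of them a member. edgeR called 0 genes and DESeq2 3, again with no member among them. The log2 differences of TA from EOM lay between -0.06 (Ier2) and 0.55 (Fosl2), with wide intervals: Fos was at 0.33 (95% interval -0.74 to 1.41) and Ier2 at -0.06 (95% interval -0.98 to 0.86), so differences of the size seen before grafting were not detectable. No member's groups were free of overlap, against 0.0162% of all genes. Within the 6 donors with both grafts, all of Experiment 2, Fos was higher in the TA graft in 6 of 6, by 0.12 to 1.74 with a mean of 0.86 (exact p = 0.0312, the smallest possible, unadjusted over 10 genes), and the other 9 members had exact p of 0.0938 or more. Of all genes, 1.44% were higher in the TA graft in 6 of 6 donors. With donor mouse as a block in limma, Fos had an adjusted p of 0.999.

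Whether grafting changed a gene differently in EOM and TA cells was tested by the interaction over all 30 libraries and 14428 genes. No member was called, against 0.208% of all genes (30 genes), and 1 member had an unadjusted p under 0.05, Ier2 with a change higher in EOM by 0.93 ± 0.43 (adjusted p = 0.672). On the centred scale 5 members had an unadjusted p under 0.05, against 7.89% of all genes, each with a value higher in EOM: Ier2 by 1.34 (adjusted p = 0.0704), Fos by 1.08, Jun by 1.05, Zfp36 by 0.87 and Egr1 by 0.64 (adjusted p from 0.364 to 0.590), and none was called. DESeq2 called Ier2, at 1.26 (adjusted p = 0.0454), and edgeR no member. Fos was at 0.67 (95% interval -0.44 to 1.78) and Egr1 at 0.22 (95% interval -0.70 to 1.15). Fos, Jun and Fosb were called relative to the library median in TA and not in EOM, and Ier2 in EOM and not in TA, but by limma none of these differences between the muscles passed the adjusted test on either scale.

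Fosb was the member with the largest difference between the experiments before grafting. In EOM it stood at 11.64 to 11.91 log2 RPM in Experiment 1 (3 libraries) and at 10.94 to 11.33 in Experiment 2 (5 libraries), and in TA at 12.09 to 12.33 (2 libraries) and 11.09 to 11.90 (6 libraries). The experiments did not overlap within either muscle. Fitted with muscle as a covariate, Fosb was lower in Experiment 2 by 0.81 ± 0.15 on the log2 scale (adjusted p = 0.0188), the only member with an adjusted p under 0.05 where 0.439% of all genes had one, and it did not reach the fold threshold. Its adjusted p passed 0.05 without EOM Experiment 1 mouse 3 or 4 (0.0551 and 0.0659), without TA Experiment 1 mouse 3 or 4 (0.0900 and 0.0747) and with all libraries (0.144), and was 1 in 1 fit over the 4 groups. No member was called by limma, edgeR or DESeq2, against 0.159% of all genes by limma, and 3 members had an unadjusted p under 0.05 by limma (Fosb, Fosl2 and Atf3).

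Fos did not share this fall in both muscles. Fitted with muscle as a covariate, its difference between experiments was 0.29 (95% interval -0.13 to 0.71), higher in Experiment 2. The direction was not the same in each muscle. In EOM its mean was 11.11 log2 RPM in Experiment 1 and 11.84 in Experiment 2, without overlap. In TA it was 12.76 and 12.51, with overlapping ranges. The log2 ratio of Fos over Fosb was -0.19 ± 0.72 (SD, n = 5) in Experiment 1 and 1.01 ± 0.29 (SD, n = 11) in Experiment 2. These values pool both muscles in unlike proportions and were not adjusted for muscle. The ratio before grafting also differed by muscle, at 0.22 ± 0.77 in EOM and 1.06 ± 0.37 in TA (SD, n = 8 each). Donor age and experiment cannot be told apart here.

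**Figure D5:**
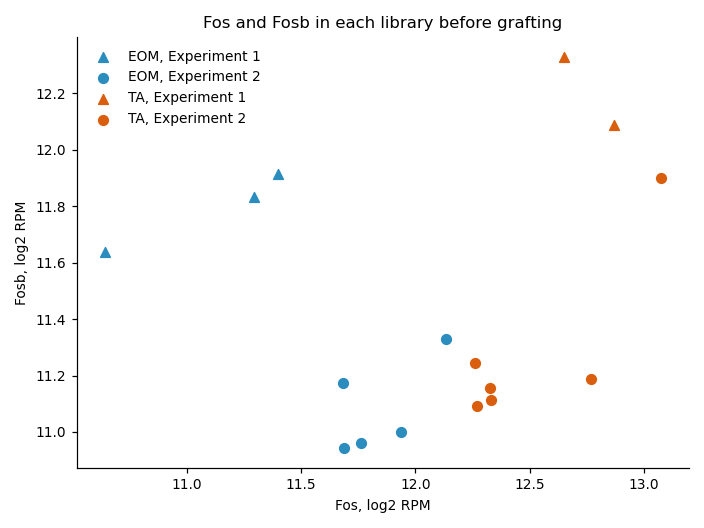
Fosb (y axis, log2 RPM) against Fos (x axis, log2 RPM) in each of the 16 pre-graft libraries, coloured by muscle, with triangles for Experiment 1 and circles for Experiment 2. TA libraries lie to the right of all EOM libraries, and within each muscle the triangles lie above the circles.

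The members varied together to different degrees. Within the 2 pre-graft groups, over 16 libraries, the correlation of the 45 pairs had a median Pearson r of 0.28, from -0.67 for Fosl2 with Atf3 to 0.90 for Fos with Jun, and 33 pairs were positive. Within the post-graft groups, over 14 libraries, all 45 were positive, with a median of 0.60 and a range of 0.19 to 0.92. The values are scaled to the reads of the library, and the mitochondrial share, which varies more after grafting, moves all members of a library in the same direction. With each library centred on its median, Zfp36 and Jun followed the mean of the other 9 most closely over the 30 libraries (r = 0.79 for both), followed by Fos (0.65), and Fosl2 did not follow it (-0.06).

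Of 8505 other genes, the 8 whose centred values over the 30 libraries were most like the mean of the members were Nr4a1 (Pearson r = 0.81), BC042782 (0.78), Nfkbiz (0.75), Btg2 (0.74), Zfp36l1 (0.74), Erf (0.72), Ppp1r15a (0.72) and Aven (0.67). Of these, 5 are early response genes of the companion list described next. Nr4a1, an orphan nuclear receptor gene, stood at 9.53, 9.60 and 10.18 log2 RPM in EOM and at 10.64, 11.01 and 11.71 in TA before grafting, without overlap. After grafting it stood at 7.26, 8.01 and 9.05 in EOM and at 6.21, 8.49 and 9.27 in TA. Aven had the lowest level of the 8, with values down to no read in a graft.

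Other genes of the response were taken from 4 lists. The 46 other early response genes tested had a median log2 fold change of TA against EOM before grafting of 0.33, beside -0.30 for all genes. Of these 46, 4 were called higher in TA and 1 lower, against 1.26% and 3.31% of all genes. These were Dusp5 (1.48, adjusted p = 1.76e-05) and the orphan receptors Nr4a1 (1.35, adjusted p = 4.19e-06) and Nr4a3 (1.23, adjusted p = 0.0128), with Cyr61 (1.25, adjusted p = 0.00779). Ctgf, which encodes a matricellular protein like Cyr61, was the one that was lower (-1.34, adjusted p = 0.0299). With centred values 8 were called higher, against 1.77% of all genes, and Ctgf lost its call.

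On grafting, 19 of the 46 were called lower and none higher in TA cells (median -0.85 beside -1.09 for all genes, of which 30.9% were called lower), with Egr2 (-3.38), Nr4a1 (-2.70), Ctgf (-2.35), Egr3 (-2.35) and Btg2 (-2.21) first in size. In EOM cells 15 were called lower and 3 higher, against 55.8% and 3.51% of all genes. Egr2 (-3.79), Ctgf (-2.38), Gadd45a (-2.29) and Btg2 (-1.77) were lower, and Dusp6, a phosphatase that acts on ERK, was 2.13 higher (adjusted p = 0.0338). With centred values the counts were 4 higher and 6 lower in TA, against 7.67% and 5.68% of all genes. In EOM they were 10 higher and 2 lower, against 6.65% and 4.84% of all genes, so the counts in each direction depended on the scale.

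The list of other AP-1 partners (Fosl1, the Batf genes, Jdp2, Atf2, Atf7 and the MAF genes) had 11 or 12 genes tested. Before grafting Maf was called higher in TA, by 2.53 (adjusted p = 0.0271). On grafting 3 were called lower in TA (among them Maff -1.64 and Atf2 -1.01) and 5 in EOM (among them Mafg -1.47, Atf7 -1.42, Maff -1.35 and Atf2 -1.06). These shares lay below those of all genes called lower, 30.9% in TA and 55.8% in EOM, but the list is short and this difference was not tested. With centred values limma called 1 higher and 0 lower in TA and 0 in EOM, and edgeR called 0 in both (in TA 9 and in EOM 8 had an unadjusted p under 0.05 in RPM).

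Among the 20 kinases and factors upstream of AP-1, 0 were called between TA and EOM before grafting by limma, with 1 at an unadjusted p under 0.05, and edgeR also called 0. On grafting 4 were called lower in TA (among them Map2k7 -2.30, Map2k2 -1.97 and Map2k1 -1.62) and Mapk11, which encodes a p38 kinase, higher (2.46), while 9 of 19 were called lower in EOM, with Mapk14 (-3.67), Elk1 (-2.38), Map2k7 (-2.26), Map2k2 (-1.999) and Map2k1 (-1.97) first in size. The shares called lower lay below the 30.9% and 55.8% of all genes, but this list is short as well and the difference was not tested. Centred, 2 were called higher and 1 lower in each muscle (of all genes 7.67% and 5.68% in TA, and 6.65% and 4.84% in EOM). Here edgeR called 0 in TA and 2 higher in EOM.

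Of 12 heat shock genes, which also respond to handling of tissue, Hspa1a was called higher in TA before grafting (1.02, adjusted p = 0.00184). On grafting 9 were called lower in TA, with Hspe1 (-2.05), Hspd1 (-1.96), Hspa8 (-1.79), Hsph1 (-1.60) and Hspa5 (-1.45) first, and 7 in EOM, with Hspa5 (-1.60), Hsp90ab1 (-1.55), Hspe1 (-1.49), Hspa8 (-1.47) and Hsp90aa1 (-1.35) first. Of all genes 30.9% and 55.8% were called lower in these comparisons, so the 7 of 12 in EOM stood near the share of all genes. Centred, 2 were called lower in TA, against 5.68% of all genes, and in EOM 0, with 4 at an unadjusted p under 0.05. No gene of the 4 lists was called between TA and EOM grafts. The reads of Jun, Jund and Zfp36 cannot be told apart by strand from those of the overlapping genes Junos, Gm11175 and Gm44710. The library method does not keep strand, and Gm11175 at Jund was counted at 36 to 1397 reads per library.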

How the data were processed

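RNA of 500 sorted cells or of the re-isolated grafts was separated from the DNA of the same lysate, amplified and sequenced. The deposited table holds log2 RPM values per gene, made by the authors with Trim Galore 0.4.4, HISAT2 2.1.0, GRCm38 and SeqMonk (annotation release not given in the sources used here), and genes without a read are listed at the value of 0.9 read. A deposited quality table gives total read counts and percentages of reads in genes, exons and mitochondrial genes. The 10 genes and the companion lists were chosen with earlier results of these data known. Values were tested as deposited with limma 3.58.1 (trend over the mean, two-sided, Benjamini-Hochberg) for genes that exceeded a log2 RPM of 1 in 4 or more compared libraries, and called where the change passed 1 on the log2 scale with an adjusted p below 0.05. Whole reads were recovered from the values (99.9986% whole within 0.1 read) and run through edgeR 4.0.16 and DESeq2 1.42.0 (R 4.3.3) as alternatives. The study itself tested with DESeq. Same-numbered libraries come from the same donor mouse, although the correlation of their deviations from group means was only -0.22 to 0.18. Within-donor differences were tested by an exact sign-flip permutation test. The 10 libraries that the study's criteria leave out (9 below 500000 reads, 70% in genes or 65% in exons, 1 not clustering with its group) entered only an alternative. Named companion genes were the up to 5 called genes of largest change per list and comparison, except for some that are counted but not reported here by name. The bisulfite libraries were not analysed here. Linear values do not sum to the same total in each library, so RPM here is not a share of gene reads. Lengths are union exons of GENCODE M21. Cebpd, Adgre1 and Hbb-bs of the lists were not analysed here.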

Additional observations from a re-analysis of the deposited data

Results flagged for a closer look

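Of 40 groups of libraries (10 genes in 4 groups), 3 held a library far from the others of its group by Dixon's criterion, where chance flags about 1 in 20 groups, or 2 of 40. Atf3 in the TA graft of Experiment 2 mouse 3 was the lowest of 7 at 6.76 log2 RPM, with the next at 8.64. Ier2 in the TA pre-graft library of Experiment 2 mouse 3 was the lowest of 8 at 8.42 log2 RPM, with the next at 9.33. Zfp36 in the TA pre-graft library of Experiment 2 mouse 4 was the highest of 8 at 11.35 log2 RPM, with the next at 10.44. That last library had the fewest reads of the 30, at 3326270, and also the highest Fos of its group, at 13.08 log2 RPM. Without it the log2 difference of Zfp36 between TA and EOM was 0.57 (limma adjusted p = 0.0271).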

How the results depend on the processing

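Over 1780 values of single members under the alternatives, 1701 kept their side of the thresholds, 86 of them not called and with another sign, 61 lost a call, 11 gained one and 7 called values turned direction. The scale mattered most. Members called between TA and EOM before grafting numbered 1, and 3 without mitochondrial genes, centred on library medians or by edgeR, and 4 by DESeq2. They numbered 0 with all libraries, in Experiment 2 alone, with donor mouse as replicate block, with experiment as covariate and in 1 fit over 4 groups, and 0 to 2 leaving out 1 library. In TA after grafting 8 became 4 without mitochondrial genes, centred or by edgeR and 3 by DESeq2 (6 to 8 leaving out 1 library, 8 with the replicate block). In EOM 7 members, all called lower, became 1 under each of these 4 settings, called lower without mitochondrial genes and higher (Ier2) in the others, where 0 were called lower (6 to 7 leaving out 1, 7 with the block), and members with a within-donor exact p under 0.05 went from 8 to 2 when centred, a setting chosen after seeing the data. For the difference of the changes DESeq2 called 1 in place of 0. Turned values, all in EOM after grafting, were Ier2 at 1.11 centred, 1.03 by edgeR and 1.12 by DESeq2, Zfp36 at 0.071, 0.19 and 0.31, and Atf3 at 0.026 by DESeq2. By construction these settings remove the fall shared by most genes.

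Genes called over the whole table followed the same pattern. TA against EOM before grafting gave 166 higher and 437 lower, 234 and 275 centred, 247 and 191 by edgeR, 202 genes with all libraries, 392 in Experiment 2 alone and 204 in 1 fit. TA after grafting gave 496 higher and 4046 lower, 937 and 937 without mitochondrial genes, 1003 and 743 centred, 782 and 402 by edgeR, 1151 and 545 by DESeq2 and 2001 genes in Experiment 2 alone. EOM after grafting gave 460 higher and 7302 lower, 750 and 932, 871 and 634, 907 and 380 and 1196 and 546 under the same 4 settings, and 4830 genes with the replicate block. The difference of the changes gave 30 genes, 2 by edgeR, 97 by DESeq2, 11 without a filter, 1 with all libraries, 15 in Experiment 2 alone and 16 with the block. The grafts compared with each other gave 0, but 3 by DESeq2, in Experiment 2 alone and in 1 fit, and 1 with the block. The experiments gave 21, 59 by DESeq2, 11 with all libraries, 0 in 1 fit, and 3 to 37 leaving out 1 library. The replicate block changed no other call of a member than that of Fos before grafting. Each member had at least 38 reads in each library compared, and each donor gave 1 library per muscle and stage. Apart from the fit with donor mouse as block, model p-values measure the spread between libraries and ignore that some share a donor. The within-donor exact p-values measure the spread between donors. All of them hold for these 2 experiments only.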
